A study of Arabidopsis thaliana with 3 samples.

Results

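The 5 genes described here are KRP1 (AT2G23430), KRP2 (AT3G50630), SIM (AT5G04470), SMR1 (AT3G10525) and SMR4 (AT5G02220), inhibitors of cyclin-dependent kinases. They were taken by gene identifier from a table of 32833 genes, and all 5 had reads. The cells were protoplasts of Arabidopsis thaliana Columbia-0 roots at 5 days after germination, which carried a nuclear mCherry reporter driven by the HB53 promoter (pHB53:NLS-3xmCherry). Protoplasts with mCherry signal were sorted. By their labels they stem from lateral root primordia at stages I to IV and form 1 group of 3 replicates, with no other condition. Because the sort used this promoter, the cells are those in which it was active, and each column of the table is 1 plate well, taken here as 1 cell.

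KRP proteins (KIP-RELATED PROTEIN) share a short region with the animal inhibitor p27 and bind D-type cyclins and the kinase CDKA;1, which holds cells back from S phase. SIAMESE and its relatives, the SMR proteins, are a plant-specific family that blocks entry into mitosis and lets cells copy their DNA without dividing, a process called endoreplication. In the root, pericycle cells re-enter the cell cycle to found a lateral root, and KRP2 is known as an inhibitor that auxin lowers at that step. SIM keeps leaf hair cells from dividing, and SMR1, also called LOSS OF GIANT CELLS FROM ORGANS, is needed for the giant cells of sepals.

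Of 573 wells on 6 plates and 3 flow cells, 322 had at least 500 genes with a read and were kept as cells, 102, 96 and 124 on flow cells 1, 2 and 3. Their depth ran from 8315 to 1459543 reads with a median of 245742, and the flow cell medians were 408532, 440181 and 132330 reads. Since the labels do not say which wells make up which replicate, the cells are treated as a single sample without any test. Ranges in brackets are exact 95% intervals for counting error alone. HB53 itself, whose promoter drove the reporter, had reads in 11.5% of cells. Of the markers of tissues outside the primordium, 3 of 4 root cap genes had no read in cells thinned to 115851 reads. A cell therefore could not hold 2 root cap markers. No such cell held 2 markers of the xylem or of the cortex, for which only 2 were listed. At least 2 endodermis markers were found in 10 thinned cells, and at least 2 epidermis and root hair markers in 4.

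The stretches before the 3 genes with a motif hit are shown because the cell cycle classes below compare these genes. They come from the RefSeq assembly TAIR10.1, are the 250 bases before the annotated gene start in the direction of transcription, and lie at chr2:9978091-9978340 (minus strand), chr3:18800056-18800305 (plus strand) and chr5:442188-442437 (minus strand). Capitals mark AACGG, the core of the MSA element of G2 and M phase genes, on either strand.
KRP1: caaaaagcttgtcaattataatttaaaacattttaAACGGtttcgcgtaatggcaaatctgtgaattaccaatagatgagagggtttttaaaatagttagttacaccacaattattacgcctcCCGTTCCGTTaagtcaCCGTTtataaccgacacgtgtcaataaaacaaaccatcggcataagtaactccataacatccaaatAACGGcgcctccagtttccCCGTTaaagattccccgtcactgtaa
KRP2: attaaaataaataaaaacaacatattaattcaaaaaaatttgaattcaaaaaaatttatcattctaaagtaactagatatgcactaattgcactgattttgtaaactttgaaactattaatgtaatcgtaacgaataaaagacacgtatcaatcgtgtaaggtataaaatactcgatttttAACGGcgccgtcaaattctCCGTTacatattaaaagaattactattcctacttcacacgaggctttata
SMR4: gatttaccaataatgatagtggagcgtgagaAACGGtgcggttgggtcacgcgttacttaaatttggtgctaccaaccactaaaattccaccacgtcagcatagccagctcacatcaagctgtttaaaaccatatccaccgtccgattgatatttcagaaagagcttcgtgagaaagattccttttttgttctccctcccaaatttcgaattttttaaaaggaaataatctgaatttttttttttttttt
KRP1 held 6 copies, KRP2 held 2 and SMR4 held 1, whereas the windows of SIM and SMR1 held none. The nearest copy began 26 bases before the KRP1 start, 50 bases before the KRP2 start and 219 bases before the SMR4 start. At least 1 copy was found in 20.6% of the same windows of 27437 protein-coding genes. None of the 5 windows held an E2F word (TTTCCCGC, TTTGGCGC, TTTGCCGC or TTTCGCGC, either strand; 1.41% of all windows) or the auxin response word TGTCTC (either strand; 10.9% of all windows). Such a match is a match of letters only.

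At least 1 of the 5 inhibitors was detected in 66 of 322 cells, or 20.5% (16.2 to 25.3), and 57 of these 66 cells had reads of 1 of them only. By flow cell the share was 19.6%, 26.0% and 16.9%. KRP2 was the most widely detected and SMR4 came next, while KRP1, SMR1 and SIM were each found in 8 to 12 cells. None of the 5 had a read in the 251 wells below the limit of 500 genes.

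KRP2 (chromosome 3, 18800306 to 18801595, plus strand) was detected in 26 cells, 8.07% (5.34 to 11.6), with 4.90%, 9.38% and 9.68% on flow cells 1, 2 and 3. Where present it was often abundant, with 1 to 141 reads per cell (median 14.5) and 10 or more reads in 17 of the 26 cells. Within those cells the level was 0.928 to 375 CPM of that cell (its reads scaled to the common CPM total), with a median of 55.5 CPM. Over all cells it summed to 657 reads or 6.13 CPM (5.67 to 6.62). The 3 flow cells gave 2.98, 9.04 and 7.77 CPM, so flow cell 1 was low in both the share and the level, and the top cell gave 21.5% of the reads.

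SMR4 (chromosome 5, 441452 to 442187, minus strand), a SIAMESE-type kinase inhibitor, was detected in 21 cells, 6.52% (4.08 to 9.80), with 7.84%, 7.29% and 4.84% on the 3 flow cells. Its reads were few and evenly spread, 1 to 10 per cell with a median of 4, and no cell gave more than 9.43% of them. The level in cells with a read ran from 1.92 to 72.2 CPM with a median of 10.8 CPM, and the pooled level was 0.990 CPM (0.810 to 1.20). By flow cell the pooled level was 0.713, 0.997 and 1.74 CPM, so that the order of flow cells by level was the opposite of the order by share.

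SIM (chromosome 5, 1266625 to 1267416, minus strand) was detected in 12 cells, 3.73% (1.94 to 6.42), with 2.94%, 6.25% and 2.42% on the 3 flow cells. It had 1 to 9 reads per cell (median 3), and 5 of the 12 cells had a single read. The pooled level was 0.364 CPM (0.259 to 0.498), and 0.126, 0.617 and 0.406 CPM on the 3 flow cells. Flow cell 2 was high in both measures, and without it the pooled level was 0.200 CPM.

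SMR1 (chromosome 3, 3281306 to 3282131, minus strand) was detected in 9 cells, 2.80% (1.29 to 5.24), but 8 of them held 1 read and the ninth held 2. Its share was 1.96%, 7.29% and 0% on flow cells 1, 2 and 3, and 7 of the 9 cells thus came from flow cell 2. The pooled level of 0.0934 CPM (0.0448 to 0.172) rested on 10 reads. Without flow cell 2 the share was 0.885% and the level 0.0308 CPM. Both SIM and SMR1 overlap an annotated gene on the opposite strand, AT5G04475 and AT3G10527. The overlapping genes had no read in any cell, and reads of each pair cannot be told apart, as no source used here states whether counting used strand.

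KRP1 (chromosome 2, 9976590 to 9978090, minus strand) was detected in 8 cells, 2.48% (1.08 to 4.84), with 3.92%, 2.08% and 1.61% on the 3 flow cells. The 8 cells had 1, 2, 2, 4, 4, 12, 22 and 30 reads, and the highest of them gave 39.0% of the total of 77 reads. In these cells the level ran from 2.57 to 134 CPM, and the pooled level was 0.719 CPM (0.567 to 0.899), with 0.817, 0.759 and 0.348 CPM by flow cell. Without the highest cell it was 0.440 CPM. Over the 6 plates KRP1 cells numbered 0 to 2 per plate, compared with 1 to 7 for KRP2 and 2 to 6 for SMR4.

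**Figure D1:**
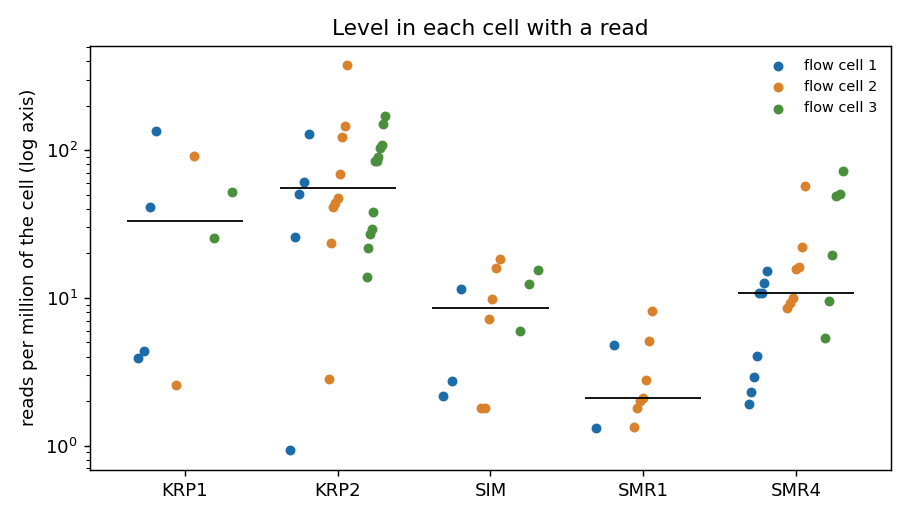
Level of each inhibitor in every cell with a read, in CPM of that cell on a log axis; each point is 1 cell, colours are flow cells and the line is the median over cells. KRP2 cells have a median of 55.5 CPM and SMR4 cells of 10.8 CPM, while SMR1 cells stay between 1.31 and 8.17 CPM.

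Per kilobase of the longest annotated transcript, the pooled level was 5.43 CPM per kilobase for KRP2 (5.02 to 5.86) and 1.34 for SMR4 (1.10 to 1.63). KRP1 followed at 0.612 (0.483 to 0.765), SIM at 0.460 (0.327 to 0.629) and SMR1 at 0.113 (0.0542 to 0.208) CPM per kilobase. For SIM and SMR1 the full length was used, including the stretch that overlaps a gene on the opposite strand. How reads there were counted is not known. In this order of level per kilobase the intervals of KRP1 and SIM overlapped, and those of the other neighbours did not. The intervals treat reads of the same cell as independent and leave out the spread between cells. Without the cell with the most reads, the pooled levels of KRP1 and KRP2 fell below their intervals. The order of the genes was not tested.

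The other genes of both families gave the 5 inhibitors their setting. The 7 KRP genes together were detected in 60.6% (55.0 to 65.9) of cells, and the 11 SIAMESE-type genes that RefSeq annotates as such or as kinase inhibitors in 60.6% as well. Any of the 18 was found in 82.3% (77.7 to 86.3) of cells. KRP5 (AT3G24810), KRP6 (AT3G19150) and KRP4 (AT2G32710) were each detected in about the same share of cells, at 26.4%, 24.8% and 24.5%, against 9.32% for KRP3 (AT5G48820) and 2.48% for KRP7 (AT1G49620). Their pooled levels were 28.1 CPM per kilobase for KRP5, 7.65 for KRP4 and 7.69 for KRP3, and 4.15 for KRP6, with 0.844 for KRP7. KRP2 thus lay below KRP3, KRP4 and KRP5 and above KRP6 in level per kilobase, although KRP6 was found in more cells.

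On the SIAMESE side, AT5G40460, which RefSeq calls a kinase inhibitor similar to SMR3, was detected in 46.9% (41.3 to 52.5) of cells at 17.7 CPM per kilobase. AT1G51355 (11.5% of cells), also described as similar to SMR3, and the kinase inhibitors AT1G10690 (10.2%) and AT1G08180 (6.21%) were found more often than SIM and SMR1. The DNA damage induced inhibitor SMR7 (AT3G27630) was detected in 4 cells, 1 of which gave 89.7% of its reads. AT5G02420 was likewise detected in 4 cells and AT2G28870 in 1. SMR5 (AT1G07500), also known from the DNA damage response, had no read in 322 cells, and a count of 0 leaves room for up to 0.932% of cells with a read (3 counts of 322), which limits detection and not the share of cells with the transcript.

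**Figure D2:**
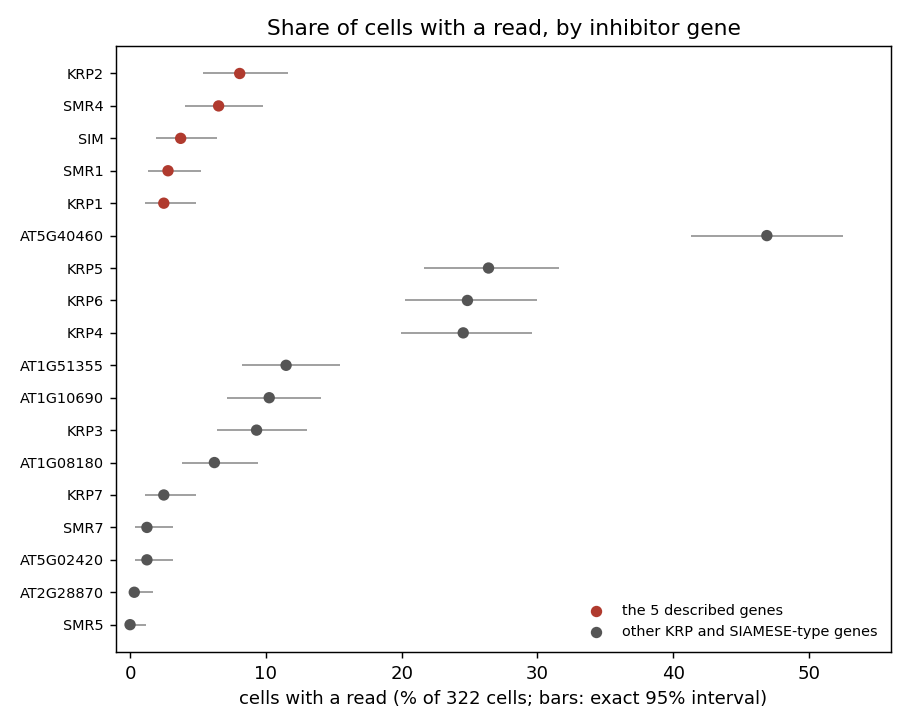
Share of the 322 cells with a read of each annotated KRP or SIAMESE-type gene; points are shares in percent, bars are exact 95% intervals, and red marks the 5 described genes. The 5 lie between 2.48 and 8.07%, below AT5G40460 at 46.9% and below KRP4, KRP5 and KRP6 at 24.5 to 26.4%.

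Cells were next classed by cell cycle genes other than the 5 inhibitors, after each cell had been thinned to 115851 reads. This left out 65 shallower cells and kept 257, of which 18 had KRP2, 14 SMR4, 5 SIM, 4 SMR1 and 3 KRP1 reads. A cell with reads of at least 3 of 27 G2 and M phase genes was put in the G2/M class (49 cells), a further cell with at least 3 of 23 S phase genes in the S class (70 cells), and the remaining 138 are called other cells. A class is a count of detected genes and not a measured phase.

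SMR4 reads were found in 4 of 49 G2/M class cells, 8.16% (2.27 to 19.6), in 8 of 70 S class cells, 11.4% (5.07 to 21.3), and in 2 of 138 other cells, 1.45% (0.176 to 5.14). The S and G2/M classes as 1 group, a grouping chosen after the values had been seen, held 12 of the 14 SMR4 cells. Their share was 10.1%, against 1.45% in other cells, a ratio of 6.96. On flow cell 1 the counts were 4 SMR4 cells in the 2 classes and 1 among other cells, on flow cell 2 they were 6 and 0, and on flow cell 3 they were 2 and 1. SMR4 was therefore more frequent in the S and G2/M classes on each flow cell. Without flow cell 2 the shares were 7.89% and 2.22%, a ratio of 3.55, and without flow cell 3 they were 11.9% and 1.01%, a ratio of 11.8.

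This difference has to be read against the number of genes found per cell. At the same number of reads, the S and G2/M classes had a median of 5042 genes per cell, against 3498 in other cells, and most genes were detected more often in them. Of 15248 genes with a read in at least 10 thinned cells, 31.3% had a share ratio of 2 or more, and 27.8% had this together with a higher share on all 3 flow cells. Among the 5 inhibitors, KRP2 and SMR4 reached 10 thinned cells, and SMR4 alone of these passed both limits. A ratio as large as that of SMR4 was found for 1.70% of the other 15247 genes, and for 5.61% of those with a read in 10 to 20 thinned cells. Among the 129 thinned cells with at least the median of 3963 genes, SMR4 was found in 11 of 85 S and G2/M class cells, 12.9%, against 1 of 44 other cells, 2.27%. Below that median it was found in 1 of 34 S and G2/M class cells, 2.94%, and in 1 of 94 other cells, 1.06%. The part of gene number in the difference was not tested further.

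KRP2 reads were found in 5 of 49 G2/M class cells, 10.2% (3.40 to 22.2), in 6 of 70 S class cells, 8.57% (3.21 to 17.7), and in 7 of 138 other cells, 5.07% (2.06 to 10.2). The intervals of the 3 classes overlapped widely. The ratio of the S and G2/M classes to other cells was 1.82, and 37.9% of genes had a ratio at least as large. On flow cell 3 KRP2 was found in 3 cells of the 2 classes and in 3 other cells.

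The remaining 3 inhibitors had too few thinned cells for a reading of their shares. SIM was found in 1 of 119 S and G2/M class cells and in 4 of 138 other cells, and SMR1 in 1 and in 3. KRP1 was found in 3 S class cells and in none of the 138 other cells.

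**Figure D3:**
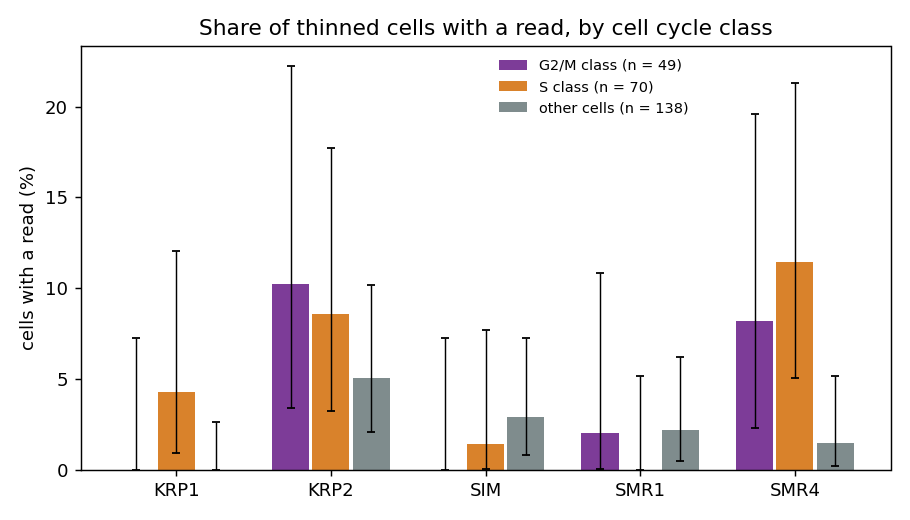
Share of thinned cells with a read of each inhibitor in the G2/M class (49 cells), the S class (70 cells) and other cells (138 cells); bars are shares in percent and whiskers exact 95% intervals. SMR4 stands at 8.16% and 11.4% in the 2 classes, against 1.45% in other cells, while the KRP2 intervals overlap.

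Of the other annotated inhibitors, 3 of the 8 that could be compared passed the same limits, against 27.8% of all genes. KRP3 was found in 15.1% of S and G2/M class cells, against 4.35% of other cells, KRP4 in 35.3% against 13.8%, and AT1G08180 in 8.40% against 2.90%. AT1G08180 rested mainly on flow cell 2, with 7 cells in the 2 classes and 1 among other cells. Its counts were 1 and 1 on flow cell 1 and 2 and 2 on flow cell 3. The 8 inhibitors of the list that could be compared had a median ratio of 1.79, against 1.58 over all genes. The widely detected AT5G40460 was found in 49.6% of S and G2/M class cells, against 46.4% of other cells.

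Tissue markers gave a second set of classes, in which a cell needed reads of at least 2 markers of a list, and a cell could belong to several. KRP2 was found in 17 of 176 cells with vascular precursor markers such as TMO6 and TMO5, 9.66% (5.73 to 15.0), against 1 of 81 cells below that limit, 1.23% (0.0313 to 6.69). On flow cells 1, 2 and 3 the counts were 4 against 0, 7 against 1 and 6 against 0. The ratio was 7.82, and 1.40% of the other genes had one at least as large; the difference of 8.42 percentage points was 3.29 points where the class needed 3 markers. Of all genes, 24.2% passed a ratio of 2 and 20.6% did so with a higher share on all 3 flow cells. The vascular precursor class also had more genes per thinned cell, with a median of 4368.5, against 3188 in the remaining cells. Among cells with at least 3963 genes KRP2 was found in 13 of 107 vascular precursor class cells, 12.1%, and in 1 of 22 others, 4.55%. SMR4 was found in 12 of 176 cells of this class, 6.82%, against 2 of 81 others, 2.47%. This was not so throughout: on flow cell 1 it was found in 3 of 60 class cells and 2 of 32 others, and among cells below the median gene number in none of 69 class cells and 2 of 59 others. Its difference of 4.35 percentage points was 1.77 points without flow cell 2 and 7.76 points without flow cell 1.

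The class with stem cell niche markers such as WOX5 and BBM held 14 cells, with a median of 6408.5 genes per thinned cell, against 3819 in the rest. SMR4 was found in 4 of these 14 cells, 28.6% (8.39 to 58.1), and in 10 of the other 243, 4.12% (1.99 to 7.44). It was found in 1 of 7 class cells on flow cell 1, in 3 of 5 on flow cell 2 and in none of 2 on flow cell 3. The difference of 24.5 percentage points was 6.65 points without flow cell 2. KRP2 was found in 3 of the 14 cells and in 15 of the other 243. In this comparison 36.1% of all genes passed a ratio of 2.

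Phloem and pericycle classes were counted in the same way. SMR4 was found in 5.49% of 91 phloem class cells, against 5.42% of 166 others, and KRP2 in 6.59%, against 7.23%. In the pericycle class SMR4 was found in 1 of 45 cells, 2.22%, against 13 of 212 others, 6.13%, and KRP2 in 2, 4.44%, against 16, 7.55%. SMR1 and KRP1 were found in 1 class cell each and SIM in none. The endodermis class had 10 cells, with 1 KRP2 and 1 SMR4 cell. The epidermis and root hair class had 4 cells, 2 of which had KRP2 reads and 1 SMR4 reads.

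Of the 66 cells with an inhibitor, 9 held more than 1 of the 5. At the depth deposited, KRP2 and SMR4 shared 3 cells, which is 11.5% of the KRP2 cells and 14.3% of the SMR4 cells. KRP2 and SIM also shared 3 cells, 11.5% and 25.0% of their cells, and KRP1 and SMR4 shared 2, 25.0% and 9.52% of their cells. Over all cells KRP2 was found in 8.07%, SMR4 in 6.52%, SIM in 3.73% and KRP1 in 2.48%, so that each of these overlaps was a larger share than over all cells, on 2 or 3 cells. In thinned cells the 3 pairs shared 3, 2 and 1 cells. The median gene number over all cells was 4009. Cells with KRP2 and SMR4 had 5715, 7229 and 6905 genes, and those with KRP1 and SMR4 had 6692 and 5646. Cells with KRP2 and SIM had 5076, 7864 and 3086 genes. The part of gene number in these overlaps was not tested. The pairs of KRP1 with KRP2, SIM or SMR1 shared none, and neither did SMR1 and SMR4; with 8 to 26 cells per gene, counts of 0 cannot be told from overlaps at the shares over all cells. One cell held 3 of the 5.

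Genes detected together with an inhibitor were compared for KRP2 and SMR4, since each of the other 3 had at most 5 thinned cells. A cell with a KRP2 read had a median of 5025 genes, against 3819 without one, and a cell with an SMR4 read 5005.5, against 3831. In cells with KRP2, 16.2% of 15247 genes had a share ratio of 2 or more and 7.98% one of 0.5 or less. In cells with SMR4 these shares of genes were 22.6% and 13.7%. A ratio of 2 or more with a higher share on all 3 flow cells was found for 7.76% of genes with KRP2 and for 11.1% with SMR4. Both comparisons draw on mostly the same cells without a read, and 3 cells carry both genes.

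S phase genes were detected more widely in SMR4 cells. These genes also define the S class, so that their counts and the class shares above are not separate evidence. Of the 21 measured S phase genes, 13 had a ratio of 2 or more, against 22.6% of all genes. The median ratio of the 21 was 2.31, against 1.30 over all genes. TK1A, a thymidine kinase of nucleotide supply, was found in 42.9% of the 14 SMR4 cells, against 8.23% of the 243 cells without a read. The A-type cyclin gene CYCA3;2 was found in 50.0%, against 10.7%, and TSO2, a ribonucleotide reductase subunit, in 57.1%, against 14.4%. For the origin recognition gene ORC3 the shares were 28.6% and 8.23%. These 4 genes were higher on all 3 flow cells, and only they of the 13 were.

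Of 20 measured G2 and M phase genes, 11 had a ratio of 2 or more in SMR4 cells and 3 one of 0.5 or less. Over all genes these shares were 22.6% and 13.7%. The G2 and M phase genes define the G2/M class, so their counts with either inhibitor are not separate evidence from the class shares above. The phragmoplast kinesin gene POK1 was found in 57.1% of SMR4 cells, against 9.88% of the others, the Aurora kinase gene AUR3 in 21.4%, against 5.76%, and 3xHMG-box1, a chromosome protein gene of mitosis, in 28.6%, against 8.23%. The mitotic cyclins CYCB1;1 and CYCB2;3 and the mitotic kinase CDKB2;1 had no read in the 14 SMR4 cells, and were found in 7.41%, 5.76% and 5.76% of the 243 others. With 14 SMR4 cells, counts of 0 cannot be told from shares of that size.

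The kinases and cyclins that inhibitors bind were also compared. In SMR4 cells 5 of 8 kinase core genes had a ratio of 2 or more, against 22.6% of all genes. Among them were the G2 kinase gene CDKB1;1 in 35.7%, against 6.58%, CDKB1;2 in 21.4%, against 3.29%, and CKS2, a kinase subunit, in 42.9%, against 13.6%. CDKB2;2, another of the 5, and CDKB2;1 also stand in the G2 and M phase list. The counts of the 2 lists are thus not separate evidence. CDKA;1 itself was found in 6 of 14 SMR4 cells with a ratio of 1.29. Among 6 measured D-type cyclins, CYCD3;1 was found in 50.0% of SMR4 cells, against 16.0%, and CYCD5;1 in none, against 8.64%. A count of 0 in 14 cells cannot be told from 8.64%. The other measured D-type cyclins had ratios of 0.739 to 1.85. Of the DNA damage response list, 4 of 7 measured genes had a ratio of 2 or more, against 22.6% of all genes. The repair gene BRCA1 was found in 57.1% of SMR4 cells, against 9.88% of the others. It is also known to be expressed in S phase, and among thinned cells it was found in 23.5% of S and G2/M class cells, against 2.90% of other cells. Whether the class bears on its share in SMR4 cells was not tested. From the same list SOG1, XRI1 and RNR2A did not pass, with ratios of 0.651, 1.24 and 1.13.

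The same lists were counted for KRP2 cells, and the difference between the KRP2 and SMR4 counts was not tested. Of the 21 S phase genes 7 had a ratio of 2 or more, 6 of them with a higher share on all 3 flow cells, and 2 had one of 0.5 or less. Over all genes these shares were 16.2%, 7.76% and 7.98%. The median ratio was 1.33, against 1.24 over all genes. The replication loading factor CDC6 was found in 27.8% of the 18 KRP2 cells, against 4.18% of the 239 cells without a read, and the helicase subunit MCM4 in 50.0%, against 16.3%. Of the 20 G2 and M phase genes 5 had a ratio of 2 or more, against 16.2% of all genes, with a median of 1.24, as over all genes. Among D-type cyclins CYCD1;1 was found in 27.8% of KRP2 cells, against 5.02%, while CYCD3;3 was found in 5.56%, against 20.5%. The activating E2F factor gene E2FB was found in 77.8% of KRP2 cells, against 28.5%. DEL1, an E2F-type repressor of endoreplication, was found in none, against 8.37%, and a count of 0 in 18 cells cannot be told from that share. E2FB and DEL1 were the 2 genes past the limits among the 12 measured genes of the RB and E2F pathway and of inhibitor turnover. The median ratio of the 12 was 1.49, against 1.24 over all genes. With SMR4, 4 of these 12 had a ratio of 2 or more, against 22.6% of all genes. The median of the 12 was then 1.58, and none of the 4 was higher on all 3 flow cells.

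Markers of tissues were counted in the same way. With SMR4, 2 of the 9 measured vascular precursor genes had a ratio of 2 or more, close to the 22.6% of all genes. These were LHW, a bHLH partner of TMO5, in 50.0% of SMR4 cells, against 16.0%, and the HD-ZIP III gene PHB in 64.3%, against 30.9%. The list had a median ratio of 1.74, against 1.30 over all genes. The pericycle gene MYB68 and the sucrose transporter gene SUC2 of phloem companion cells had no read in SMR4 cells, and were found in 14.0% and 10.7% of the cells without. Counts of 0 in 14 cells cannot be told from shares of that size. Of the 9 measured phloem genes, 3 passed 2 with SMR4, against 22.6% of all genes. These were AT5G02460 (28.6%, against 4.53%), SMXL4 (21.4%, against 5.35%) and BRX (14.3%, against 5.76%), none of them higher on all 3 flow cells. The median over the list was 1.41, against 1.30 over all genes. With KRP2 the 9 vascular precursor genes had a median ratio of 1.40, against 1.24 over all genes. Of these 9 the cytokinin-activating enzyme gene LOG4 alone passed 2 (27.8%, against 12.6%). Over all genes, 16.2% had a ratio of 2 or more with KRP2 and 7.98% one of 0.5 or less. Tissue markers also define the tissue classes, so these counts and the class shares above are not separate evidence. The phloem list had a median ratio of 0.692 with KRP2, below the 1.24 of all genes, with the early phloem genes BRX in no KRP2 cell, against 6.69%, and NAC020 in 5.56%, against 16.3%. For BRX, a count of 0 in 18 cells cannot be told from 6.69%. In that list 3 of 9 genes had a ratio of 0.5 or less and 2 had one of 2 or more, SMXL4 (16.7%, against 5.44%), higher on all 3 flow cells, and AT5G02460 (11.1%, against 5.44%).

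The inhibitors of both families were counted as well. KRP3 was found in 42.9% of SMR4 cells, against 7.41% of the others, and AT1G10690 in none, against 10.7%. A count of 0 in 14 cells cannot be told from 10.7%. SMR4 itself was found in 16.7% of KRP2 cells, against 4.60% of the cells without KRP2. Of the 8 other inhibitors measured, 1 had a ratio of 2 or more with KRP2 and 1 with SMR4. Over all genes these shares were 16.2% and 22.6%.

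Auxin and lateral root genes were counted for the same cells. With KRP2, 6 of 14 measured auxin response genes had a ratio of 2 or more, against 16.2% of all genes. Among them were the auxin repressor gene IAA1 in 27.8%, against 5.44%, the auxin importer LAX3 in 38.9%, against 11.7%, and the exporters PIN3 in 33.3%, against 11.3%, and PIN7 in 38.9%, against 13.8%. Of 14 measured lateral root initiation genes, 4 had a ratio of 2 or more with KRP2 and 1 one of 0.5 or less, with a median of 1.52. Over all genes these shares were 16.2% and 7.98%, with a median of 1.24. Among the 4, PUCHI, an AP2/ERF regulator of primordium patterning, was found in 27.8% of KRP2 cells, against 6.28%. With SMR4, also 6 of 14 auxin response genes passed, against 22.6% of all genes. IAA1 was found in 42.9%, against 4.94%, PIN3 in 35.7%, against 11.5%, and PIN7 in 35.7%, against 14.4%. With SMR4, 3 of the 14 lateral root initiation genes had a ratio of 2 or more, close to the 22.6% of all genes, and 1 one of 0.5 or less. Among the 3 was PUCHI, found in 42.9% of SMR4 cells, against 5.76%. LBD16, LBD33 and IAA28 had ratios of 0.986, 0.755 and 0.694. CPC, a MYB-type regulator of root hair patterning that stood in the epidermis list, was found in 10 of 14 SMR4 cells, against 49 of 243, and in 55.6% of KRP2 cells, against 20.5%. The auxin-conjugating enzyme gene GH3.3 and the receptor kinase gene ACR4 had no read in cells with either inhibitor, and each was found in 10 of the 239 cells without KRP2, too few for a count of 0 in 18 or 14 cells to be told from an equal share.

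**Figure D4:**
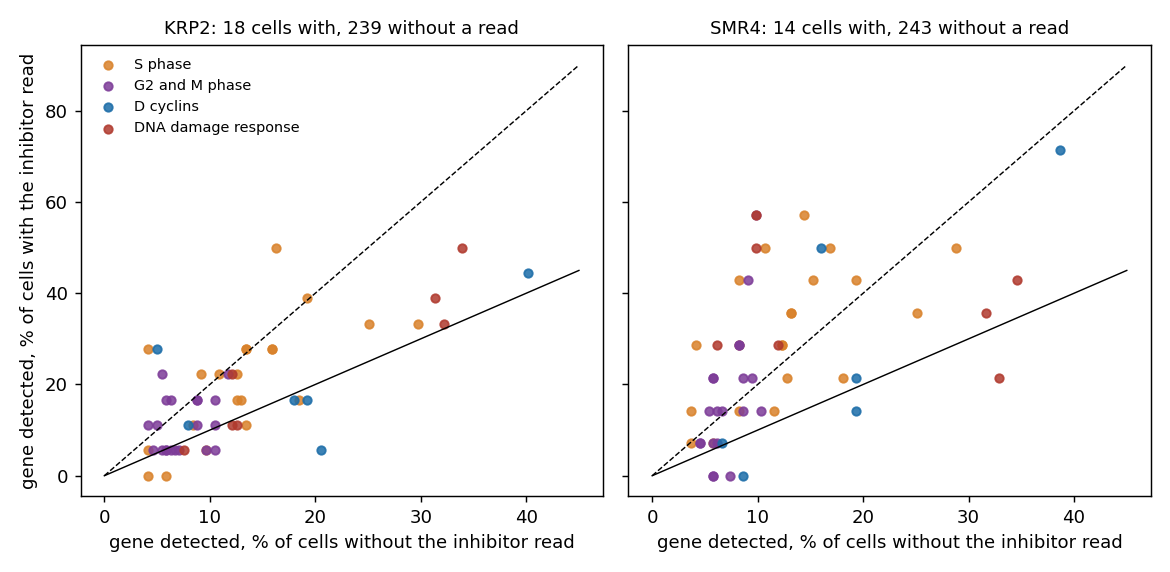
Share of thinned cells in which a gene was detected, in cells with a read of the inhibitor (vertical axis, percent) against cells without one (horizontal axis, percent); each point is 1 measured gene of 4 lists, the solid line is equality and the dashed line a ratio of 2. For SMR4, 13 of 21 S phase genes lie at or above the dashed line, and for KRP2 7 of 21. Over all genes 22.6% and 16.2% have a ratio of 2 or more.

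The genes most alike in pattern were sought among 10574 genes with a read in at least 30 thinned cells, by Spearman's rho of log2(CPM + 1) within each flow cell, averaged over the 3. For SMR4 they were AT3G54750 (0.44), AT4G31360 (0.41) and the expansin gene EXPA15 (0.41), which shared 11, 10 and 9 of the 14 SMR4 cells. For KRP2 they were AT5G61330 (0.35), RRP45a (0.31) and NTRC (0.30), which shared 10, 9 and 10 of the 18 KRP2 cells. All points share their libraries and their depth, and the values are descriptions. KRP1, SIM and SMR1 each had no read on 1 flow cell after thinning, so no value was computed for them.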

How the data were processed

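Reads were measured in single sorted cells. The authors' deposited table holds raw counts of reads per gene and plate well, beside a text that names flow cell and plate of each well. Per the submitters' processing notes, TAIR10 was the build named; no source used here gives the aligner, counting rule or strand setting. Molecular identifiers are not mentioned, and the intervals and the floor reflect counting error alone.

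The members and lists were chosen with earlier results of these data known, and 3 rows of the inhibitor list were left out because RefSeq leaves their product uncharacterised. Symbols come from RefSeq (TAIR10.1), which held 32548 of 32833 identifiers. Wells with at least 500 detected genes were cells. Wells could not be assigned to replicates, so no test was run. No doublet caller was used, and wells with more than 1 cell were not identified. Intervals are exact (Clopper-Pearson for shares, Poisson for reads). Cells were thinned to 115851 reads (percentile 20 of totals, seed 1). Comparisons across genes took genes with a read in at least 10 thinned cells. A ratio of shares of 2 or more, or 0.5 or less, was called. The recovery of planted ratios was checked on simulated data. There each unchanged gene had the same chance of detection in every cell, so the check does not cover differences in gene number between cells. Genes were named by list membership, ratio and equal direction on all 3 flow cells, at most 4 per list. The few others, and the comparison within cells of at least the median gene number, were chosen after seeing the data. Python 3.11.15, numpy, pandas and scipy were used. Some list genes are not reported here.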

Additional observations from a re-analysis of the deposited data

Results flagged for a closer look

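AT5G02420, described by RefSeq as a kinase inhibitor similar to SMR3, had 41 reads in 1 well that was not kept as a cell, more than the limit of 3 counts. That well had 271 genes with a read and 16269 reads in all, and in the 322 cells the gene had 25 reads in 4 cells.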

How the results depend on the processing

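No paired analysis was possible because there is 1 group, and wells could not be assigned to its replicates. Of the alternatives tried for the main values, 109 stayed within the interval of the value and 23 moved outside it, and 1 changed sign. The SMR4 difference between S and G2/M class cells and other cells, 8.63 percentage points, lay between 5.67 and 10.9 points when 1 flow cell was left out, and between 8.59 and 11.1 points under the other alternatives. The KRP2 difference between vascular precursor class cells and the rest, 8.42 points, was 3.29 points with a limit of 3 markers. For SMR1 the difference between S and G2/M class cells and other cells changed from -1.33 to 0.80 points with a limit of 2 list genes.

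With all 573 wells counted the share was 4.54% for KRP2 and 3.66% for SMR4. With at least 5 reads required it was 0.932% for KRP1, 0.932% for SIM, 0% for SMR1 and 2.80% for SMR4, and with 2 reads 0.311% for SMR1. Leaving out flow cells in turn gave SMR1 a share of 0.885 to 4.55% and a level of 0.0308 to 0.135 CPM (both low without flow cell 2), and levels of 4.25 (without flow cell 2) to 8.67 CPM for KRP2, 0.200 (without flow cell 2) to 0.556 CPM for SIM and 0.846 to 1.21 CPM for SMR4. As a mean over cells the level was 1.10 CPM for KRP1 and 1.26 CPM for SMR4. Without the cell with the most reads it was 0.440 CPM for KRP1 and 4.84 CPM for KRP2. The SMR4 difference for stem cell niche class cells, 24.5 points, was 5.02 points with a limit of 1 marker and 6.65 to 39.1 points when 1 flow cell was left out, the lowest without flow cell 2. Requiring a read in 20 thinned cells gave 1632 genes with a ratio of 2 or more and 595 with 0.5 or less for KRP2, and 1240 with 0.5 or less for SMR4, since fewer genes were compared.

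Differences that changed sign for single tissue classes were KRP1 in pericycle class cells (-0.75 points without flow cell 1 to 2.72 without flow cell 2), phloem (0.26, limit 1), endodermis (0.91, limit 1) and stem cell niche (-1.18 with limit 3, and -1.27 without flow cell 2 to 14.3 without flow cell 1), SIM in pericycle class cells (0.79 with limit 1, 1.56 at the deposited depth), SMR4 in pericycle class cells (0.18 at the deposited depth) and SMR1 in endodermis class cells (0.42, limit 1). Except where named, the cause of these shifts was not tested. With 3 to 18 thinned cells per inhibitor, small differences were not detectable at this depth.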
